A study of Penicillium oxalicum with 9 samples.

Results

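The 59 genes described here encode chaperones and redox defence proteins of the mould Penicillium oxalicum, known for the cellulases and other plant wall enzymes it secretes. They were chosen among the 9786 genes of the deposited table by words in the name of the KEGG orthologue. The words were heat shock, chaperonin, DnaJ, catalase, superoxide dismutase, thioredoxin, glutaredoxin, peroxiredoxin and glutathione, and names with disulfide or transcription were left out. A further glutathione S-transferase gene, PDE_01194, met the words but lies in a run of loci that was set aside. RNA sequencing had measured mycelia of 3 deletion strains, with 3 biological replicates each. The labels call them dPoflbC (deletion of PoflbC), dPoClrC (deletion of PoClrC) and dCA (deletion of CA). Every culture had 22 h on 2% glucose, 2 h without a carbon source and then 4 h on 2% cellulose, shaken at 200 rpm and 30 °C in the medium of Vogel. All 3 strains carry a deletion, so a difference does not show which strain of a pair had moved, and the labels name neither the parent strain nor the gene behind CA, nor how many transformants a strain stands for.

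Hsp70 chaperones bind unfolded stretches of other proteins, and J proteins (the DnaJ family) bring them their clients and start their ATP cycle. GroEL and GroES form a closed folding chamber, which in fungi lies in the mitochondrion. Thioredoxins and glutaredoxins reduce disulfide bonds with electrons from NADPH, which reach glutaredoxins by way of glutathione, a small thiol. Superoxide dismutases turn superoxide into hydrogen peroxide, which catalases and peroxiredoxins break down. Glutathione also serves enzymes that add it to foreign compounds, or that use it to remove methylglyoxal and formaldehyde.

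The KEGG names are matches by sequence similarity, and the deposited description of 57 of the 59 genes reads only hypothetical protein. The Gene Ontology columns went against the KEGG name of PDE_01645, matched as a gamma-glutamyltranspeptidase but given a transcription factor function in the nucleus. They gave PDE_08098, matched as a peroxiredoxin, heme binding and peroxidase activity. By name the genes were 4 heat shock (Hsp70 family), 15 DnaJ, 2 chaperonin, 4 thioredoxin, 2 glutaredoxin, 4 peroxiredoxin, 3 catalase, 4 superoxide dismutase, 10 glutathione S-transferase and 11 other glutathione genes. The Hsp90 gene and the mitochondrial Hsp70 are named HtpG and DnaK in KEGG and so lay outside the rule.

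A library held 6.49 to 7.76 M reads (mega-reads) in genes. Levels are the authors' RPKM, read counts corrected for gene length and for the total of the library, and folds are log2 fold changes from edgeR after TMM scaling, with the standard error. Rose, fell and called are used of genes with a log2 fold change of 1 or more in size at an adjusted p below 0.05 in edgeR. Scaling matters here: the TMM factors were 1.20 to 1.24 in dPoflbC, 0.988 to 1.03 in dPoClrC and 0.680 to 0.906 in dCA, so equal scaled levels appear as a higher RPKM in dPoflbC than in dCA. A higher RPKM mean in dPoflbC than in dCA can thus go with a log2 fold change below 0 after scaling. Replicate 2 of dCA differed most from the others of its strain. The set-aside gene PDE_01194 alone took 3.42% of its reads, compared with 0.114% and 0.174% in dCA replicates 1 and 3. Genes of spore formation (2 BrlA entries and FlbD) were the only matches to search words for cells other than mycelium. By name they are regulators, so their RNA does not measure how many spores or spore-bearing structures a sample held. Their summed level was 286 to 301 RPKM in dPoflbC, 57.3 to 71.8 RPKM in dPoClrC and 52.3 to 64.5 RPKM in dCA, and the BrlA entry PDE_00079 was at 0 in dCA replicate 2. BrlA (PDE_00087) and FlbD (PDE_03008) were called higher in dPoflbC than in each other strain, and BrlA also in dPoClrC against dCA. There FlbD went the other way, with a log2 fold change of -0.40 ± 0.11 (edgeR, adjusted p = 0.0204), under the fold threshold. PDE_00079 had too few reads to be tested. The part of these genes in the results was not tested.

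The 59 genes together took 1.32 ± 0.0465% of the reads in dPoflbC, 1.28 ± 0.0672% in dPoClrC and 1.02 ± 0.170% in dCA (mean ± SD, n = 3 each), and 0.824% in dCA replicate 2, the lowest library. Their levels were high for this fungus: the median of the genes' means was 112 RPKM, against 26.5 RPKM over all genes, and 31 of the 59 exceeded 100 RPKM while 5 lay under 10 RPKM. The Cu-Zn superoxide dismutase PDE_09399 was the most abundant, at 1578 RPKM over the 9 libraries, and the glutathione S-transferase PDE_00601 the least, at 0.423 RPKM. The makeup of the reads differed between strains. These shares are without TMM scaling, so equal scaled levels appear as a larger share in dPoflbC or dPoClrC than in dCA. Hsp70 genes took 0.343 ± 0.0203% of the reads in dPoflbC, 0.194 ± 0.0402% in dPoClrC and 0.203 ± 0.0472% in dCA, and the dPoflbC libraries lay above all others. After scaling, the log2 fold changes of the 4 Hsp70 genes in dPoflbC against dCA were 2.18, 0.64, 0.19 and -0.87. Only the first of these was called. Catalases took 0.249 ± 0.0155% in dPoflbC, 0.354 ± 0.0328% in dPoClrC and 0.252 ± 0.0486% in dCA, with the dPoClrC libraries above all others. After scaling, 0 of the 3 catalases were called in dPoClrC against dCA, and the levels of each overlapped there. The most abundant, PDE_07249, had a log2 fold change of 0.23 ± 0.16 (edgeR, adjusted p = 0.281). Fewer cells of a kind and less RNA per cell cannot be told apart in such bulk samples. Glutathione S-transferases took 0.0751 ± 0.00210% in dPoflbC, against 0.106 ± 0.00438% in dPoClrC and 0.109 ± 0.0152% in dCA, and the dPoflbC libraries lay below all others.

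**Figure D1:**
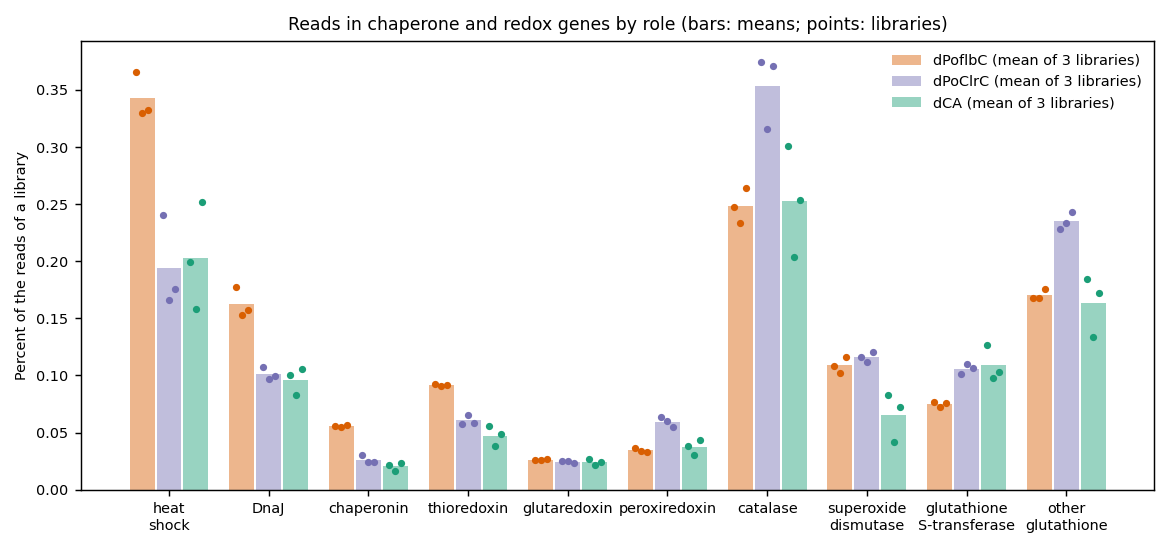
Percent of the reads of a library in the genes of each role (vertical axis), for dPoflbC, dPoClrC and dCA; bars are means of 3 libraries and points are libraries. Hsp70 genes took 0.330% to 0.366% of the reads in dPoflbC, above the 0.166% to 0.240% in dPoClrC and the 0.158% to 0.252% in dCA. The shares are without TMM scaling.

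In dPoflbC against dCA, 5 of the 58 genes tested rose and 10 fell. Those that rose were an Hsp70, a ribosome-type J protein, GroEL, a thioredoxin and an Fe-Mn superoxide dismutase, and 8 of the 10 that fell were glutathione S-transferases or other glutathione enzymes. Called genes made up 25.9% of the 58, against 27.1% of all 8681 genes tested, of which 11.4% were called higher and 15.8% lower. The median log2 fold change was -0.13 for these genes and -0.07 for all genes. Scaled levels did not overlap between the strains in 39 of the 58 (67.2%), against 68.2% of all genes. The share of genes called was thus close to the background. Without TMM, 14 rose and 6 fell, and the medians were 0.44 for these genes and 0.51 for all genes. Over all genes 2272 were then called higher and 757 lower, where 988 and 1368 were with TMM.

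In dPoClrC against dCA, 2 of the 58 rose and 2 fell. The Hsp70 PDE_00987 and the peroxiredoxin PDE_08230 rose, and the endoplasmic Hsp70 PDE_08980 (BiP) and the gamma-glutamyltranspeptidase PDE_00595 fell. That was 6.9% of the genes, against 13% of all genes tested, with 5.69% called higher and 7.35% called lower. Scaled levels did not overlap in 30 of the 58 (51.7%), against 50.6% of all genes. The medians were -0.0084 for these genes and 0.0017 for all genes. Without dCA replicate 2, edgeR called 0 of the 58 higher, while 14 were higher at an unadjusted p under 0.05; the log2 fold change of PDE_00987 was then 0.88 and that of PDE_08230 was 0.96. Without dCA replicate 3 the value of PDE_08980 was -0.95, and without dPoClrC replicate 1 that of PDE_00595 was -0.98, neither of them called. With no scaling 3 rose and 0 fell, with 5 lower at an unadjusted p under 0.05 in edgeR. Over all genes 887 were then called higher and 454 lower, where 494 and 638 were with TMM.

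In dPoflbC against dPoClrC, 5 of the 58 rose and 12 fell. The 5 were chaperones and a thioredoxin reductase, and the 12 held 8 glutathione enzymes, 2 peroxiredoxins, a catalase and a superoxide dismutase. That was 29.3% of the genes, against 22.6% of all genes tested, of which 9.05% were called higher and 13.6% lower. The medians were -0.12 for these genes and 0.011 for all genes. Scaled levels did not overlap in 47 of the 58 (81%), against 69.6% of all genes. With no scaling 10 rose and 8 fell, with medians of 0.16 for these genes and 0.29 for all genes. Over all genes 1289 were then called higher and 876 lower, where TMM gave 786 and 1179. Each strain enters a pair of these comparisons, so they are not independent and are given side by side. In every called gene below, the RPKM of the strains compared did not overlap either.

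**Figure D2:**
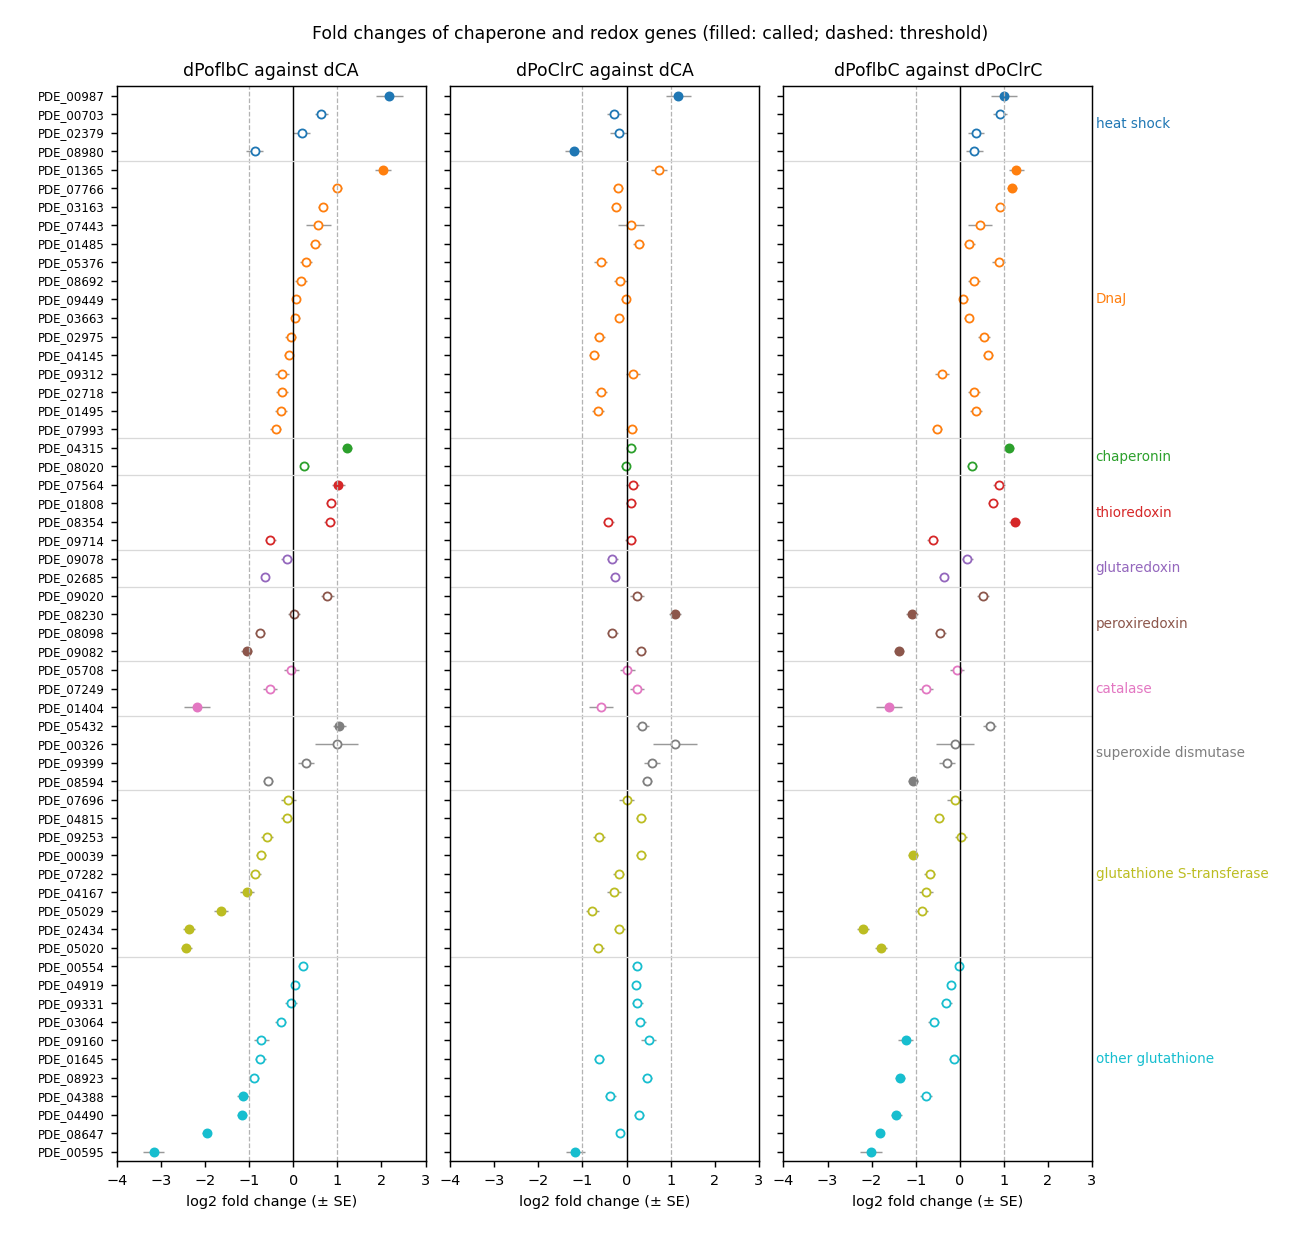
Log2 fold change with its standard error (horizontal axis) of the 58 genes tested, one row per gene, grouped by role, in dPoflbC against dCA, dPoClrC against dCA and dPoflbC against dPoClrC; filled points were called and dashed lines mark the fold threshold. Filled points number 15, 4 and 17 in the panels, and every called glutathione enzyme lies left of 0.

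The Hsp70 family had 4 genes. PDE_00987, a cytosolic Hsp70 (KEGG 1/8), was at 359, 391 and 359 RPKM in dPoflbC, 178, 139.6 and 139.7 RPKM in dPoClrC, and 86.8, 23.3 and 60.6 RPKM in dCA. The dPoflbC libraries were the highest and the dCA libraries the lowest, with dCA replicate 2 lowest of all. Its log2 fold change was 2.18 ± 0.30 in dPoflbC against dCA (adjusted p = 0.000125), 1.18 ± 0.29 in dPoClrC against dCA (adjusted p = 0.0108) and 1.00 ± 0.29 in dPoflbC against dPoClrC (adjusted p = 0.0129). The last of these was under the fold threshold and not called without dPoflbC replicate 2, dPoClrC replicate 2 or dPoClrC replicate 3 (0.95 to 0.96). The other gene with the same KEGG name, PDE_02379, was the most abundant Hsp70, at 941, 772 and 788 RPKM in dPoflbC, 698, 449.7 and 457 RPKM in dPoClrC, and 475, 421 and 568 RPKM in dCA. It was called in none of the comparisons, with log2 fold changes of 0.19, -0.18 and 0.37 and edgeR's adjusted p of 0.411, 0.48 and 0.123, and it too was highest in dPoflbC by RPKM. The difference between these genes was not tested.

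BiP (PDE_08980, heat shock protein 5 of the Hsp70 family), the Hsp70 of the endoplasmic reticulum that helps fold secreted proteins, was at 306, 291 and 321 RPKM in dPoflbC, 221, 177 and 206 RPKM in dPoClrC, and 325, 278 and 528 RPKM in dCA. By RPKM the dPoClrC libraries were the lowest, dPoflbC and dCA overlapped, and dCA replicate 3 stood well above the other dCA libraries. BiP fell in dPoClrC against dCA (-1.20 ± 0.19 on the log2 scale, adjusted p = 0.00132); with no scaling the value was -0.91 and not called. In dPoflbC against dCA its log2 fold change was -0.87 ± 0.19 (adjusted p = 0.00296), under the fold threshold. After scaling its dPoflbC libraries all lay below those of dCA. PDE_00703, the Hsp110-type member (Hsp70 4) that exchanges the nucleotide of Hsp70, averaged 246 ± 19.2 RPKM in dPoflbC, 107 ± 25.5 RPKM in dPoClrC and 107 ± 24.6 RPKM in dCA. It was not called, with log2 fold changes of 0.64, -0.28 and 0.92 in the order of the comparisons above.

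Of the 15 J proteins, 1 rose in dPoflbC against dCA (6.67%, where 11.4% of all genes were called higher), 2 rose in dPoflbC against dPoClrC (13.3%, where 9.05% were) and the others were not called. In dPoClrC against dCA edgeR called 0 of the 15, with 7 at an unadjusted p under 0.05, while DESeq2 also called 0 and limma on log2(RPKM + 1) called PDE_01365 higher. PDE_01365, DnaJ homolog C2, whose yeast counterpart zuotin sits on the ribosome at the exit of the new chain, was at 201, 211 and 192 RPKM in dPoflbC, 67.7, 74.7 and 62.0 RPKM in dPoClrC, and 46.5, 19.5 and 35.6 RPKM in dCA. The strains did not overlap in any pair. It rose in dPoflbC against dCA by 2.03 ± 0.18 (log2, adjusted p = 7.91e-06) and in dPoflbC against dPoClrC by 1.28 ± 0.18 (adjusted p = 0.000163). In dPoClrC against dCA its log2 fold change of 0.74 ± 0.18 missed the fold threshold (adjusted p = 0.00988).

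PDE_07766 and PDE_02975 share the name DnaJ homolog A2, a cytosolic J protein type that works with Hsp70. PDE_07766 was at 82.7, 76.3 and 76.3 RPKM in dPoflbC, 26.8, 30.0 and 28.6 RPKM in dPoClrC, and 27.9, 25.7 and 24.9 RPKM in dCA, with dPoflbC well above and the other strains close together. It rose in dPoflbC against dPoClrC (1.18 ± 0.11, adjusted p = 1.62e-05). Against dCA its log2 fold change was 0.988 ± 0.11 (adjusted p = 4.38e-05), just under the threshold. PDE_02975, the most abundant J protein, was at 406, 336 and 374 RPKM in dPoflbC, 243, 183 and 203 RPKM in dPoClrC, and 265, 229.5 and 281 RPKM in dCA and was not called. Its scaled log2 fold change in dPoflbC against dCA was -0.063. PDE_03163, matched to bacterial DnaJ and hence to the mitochondrial type, averaged 36.5 ± 0.980 RPKM in dPoflbC, 16.1 ± 2.13 RPKM in dPoClrC and 15.5 ± 2.77 RPKM in dCA, and its log2 fold change of 0.91 ± 0.10 in dPoflbC against dPoClrC was under the threshold.

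Some J proteins serve the secretory pathway. SCJ1 (PDE_04145), which in yeast assists BiP inside the endoplasmic reticulum, averaged 66.7 ± 3.66 RPKM in dPoflbC, 35.4 ± 0.253 RPKM in dPoClrC and 48.2 ± 11.4 RPKM in dCA. DnaJ homolog C3 (PDE_01495), also a partner of BiP in mammals, averaged 47.2 ± 2.87 RPKM in dPoflbC, 30.0 ± 2.72 RPKM in dPoClrC and 38.2 ± 8.91 RPKM in dCA. Neither was called in dPoClrC against dCA, where their log2 fold changes were -0.74 ± 0.11 and -0.65 ± 0.14 (adjusted p = 0.000794 and 0.00488). In dPoflbC against dCA their scaled values were -0.10 and -0.28, not called, although their RPKM means were higher in dPoflbC. Values lay below 0 in dPoClrC against dCA for 10 of the 15 J proteins, and for 4323 of all 8681 genes tested. The median of the 15 was -0.16, against 0.0017 for all genes. DnaJ homolog C19 (PDE_05376), of the kind that drives import at the mitochondrial inner membrane in yeast, averaged 101 ± 3.84 RPKM in dPoflbC, 45.6 ± 8.52 RPKM in dPoClrC and 55.2 ± 6.69 RPKM in dCA and was not called. DnaJ homolog C8 (PDE_07993), a splicing-related J protein in mammals, had the lowest log2 fold change of the 15 in dPoflbC against dCA, at -0.40 ± 0.12 (adjusted p = 0.0142). The other J proteins, among them B4, B12, C7, C9, C11, C17 and A5, were not called in any comparison.

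GroEL rose in dPoflbC and GroES was not called; the difference between them was not tested. GroEL (PDE_04315) was at 227, 223 and 224 RPKM in dPoflbC, 99.4, 78.8 and 79.5 RPKM in dPoClrC, and 69.7, 51.2 and 73.1 RPKM in dCA, and the dPoflbC libraries lay far above the others. It rose in dPoflbC against dCA (1.22 ± 0.11, adjusted p = 8.48e-06) and against dPoClrC (1.11 ± 0.11, adjusted p = 1.88e-05). Its lid GroES (PDE_08020) was at 496, 504 and 539.5 RPKM in dPoflbC, 398, 324 and 328 RPKM in dPoClrC, and 289, 243 and 331 RPKM in dCA. GroES was highest in dPoflbC by RPKM but was not called, with scaled log2 fold changes of 0.25 ± 0.11 against dCA and 0.28 ± 0.11 against dPoClrC.

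**Figure D3:**
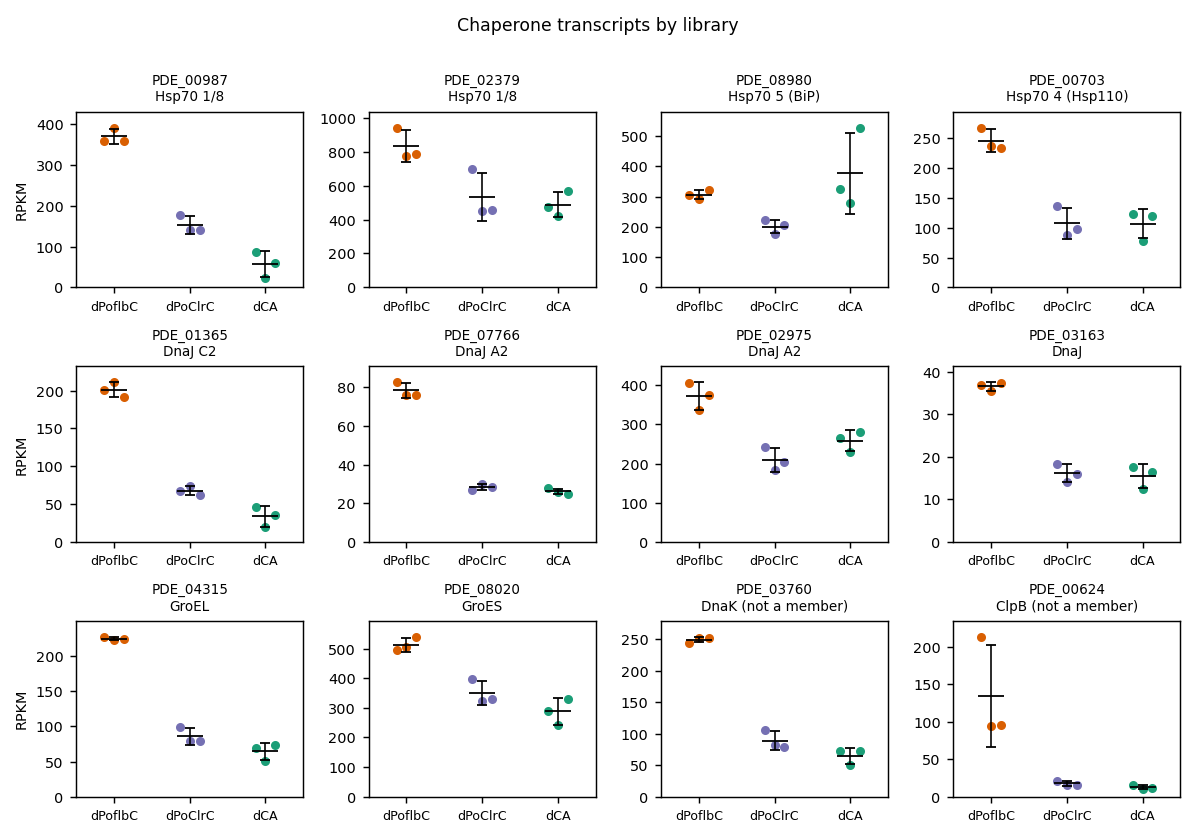
RPKM (vertical axes, from 0) of 12 chaperone genes in the libraries of dPoflbC, dPoClrC and dCA; points are libraries, horizontal marks are means and bars are SD (n = 3). PDE_00987, PDE_01365 and GroEL are highest in every dPoflbC library, while BiP (PDE_08980) is lowest in dPoClrC; DnaK and ClpB, which the rule did not take, are shown for comparison.

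Other chaperones and cochaperones, a list made by search words on the KEGG names and descriptions, held 24 genes, all tested. In dPoflbC against dCA 4 rose and 1 fell, which is 20.8% of the list and below the 27.1% called over all genes. The median was 0.015, against -0.07 over all genes. Those that rose included the mitochondrial Hsp70 (DnaK, PDE_03760), which averaged 249.8 ± 4.33 RPKM in dPoflbC, 89.2 ± 14.9 RPKM in dPoClrC and 65.5 ± 12.7 RPKM in dCA, and its nucleotide exchange factor GrpE (PDE_08711), which averaged 72.0 ± 5.47 RPKM in dPoflbC, 31.0 ± 3.96 RPKM in dPoClrC and 19.6 ± 4.09 RPKM in dCA. Their log2 fold changes were 1.36 ± 0.12 and 1.31 ± 0.12 (adjusted p = 8.69e-06 and 1.09e-05).

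ClpB (PDE_00624), the Hsp104-type chaperone that pulls proteins out of aggregates, was at 213, 94.0 and 95.8 RPKM in dPoflbC, 21.6, 15.8 and 15.7 RPKM in dPoClrC, and 16.3, 10.6 and 11.7 RPKM in dCA. The dPoflbC libraries were all above the rest, and dPoflbC replicate 1 was far above replicates 2 and 3. Its log2 fold change of 2.80 ± 0.31 against dCA (adjusted p = 2.92e-05) was 2.33 without that library, and against dPoClrC it was 2.64 ± 0.30 (adjusted p = 4.88e-05), or 2.16 without it. The unconventional prefoldin PDE_05511 also rose against dCA (1.16 ± 0.13), and the cyclophilin PDE_01711 (peptidyl-prolyl isomerase D, an Hsp90 partner) fell (-1.21 ± 0.11), or -0.63 and not called with no scaling. In dPoflbC against dPoClrC 4 of the 24 were called (16.7%, against 22.6% of all genes). Those that rose were ClpB, DnaK (1.21) and PDE_05511 (1.06), and PDE_01711 fell (-1.09). Without dPoClrC replicate 1 the value of PDE_05511 was 0.97 and not called, and with no scaling that of PDE_01711 was -0.81 and not called. In dPoClrC against dCA 0 of the 24 were called by edgeR, DESeq2 or limma, with 9 at an unadjusted p under 0.05 in edgeR and log2 fold changes from -0.43 to 0.54. Hsp90 (HtpG, PDE_09149) averaged 833 ± 46.3 RPKM in dPoflbC, 552 ± 141 RPKM in dPoClrC and 546 ± 68.0 RPKM in dCA and was not called. After scaling its log2 fold change in dPoflbC against dCA was 0.024. The words also drew in PDE_03790, PDE_04036 and PDE_07505, whose names are of a TOR kinase, a mitochondrial protease and a Golgi exchange factor.

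In the list of folding in the endoplasmic reticulum, 1 of 7 genes fell in dPoflbC against dCA (14.3%, where 15.8% of all genes were called lower). The others were not called in any comparison. In dPoClrC against dCA edgeR called 0 of the 7, with 4 at an unadjusted p under 0.05. Values lay below 0 for 6 of the 7 there, where 4323 of all 8681 genes did, with medians of -0.37 and 0.0017. In dPoflbC against dPoClrC edgeR also called 0, with 3 at an unadjusted p under 0.05. The gene that fell was the protein disulfide-isomerase A6 PDE_02993, which forms disulfide bonds in secreted proteins, at 62.5 ± 2.68 RPKM in dPoflbC, 100.4 ± 12.3 RPKM in dPoClrC and 149.9 ± 37.2 RPKM in dCA. It changed by -1.85 ± 0.17 on the log2 scale (adjusted p = 7.91e-06). Its values of -0.89 ± 0.16 in dPoClrC against dCA and -0.96 ± 0.16 in dPoflbC against dPoClrC were under the fold threshold. The 5 stress regulators were not called by edgeR, with 1 or 2 at an unadjusted p under 0.05 per comparison, nor by DESeq2 or limma. The heat shock transcription factor PDE_09961 averaged 25.5 ± 2.03 RPKM in dPoflbC, 20.2 ± 1.06 RPKM in dPoClrC and 16.3 ± 1.61 RPKM in dCA, the AP-1-like factor PDE_03264 averaged 112 ± 6.23 RPKM in dPoflbC, 84.6 ± 4.92 RPKM in dPoClrC and 90.1 ± 11.1 RPKM in dCA, and SKN7 (PDE_08232) averaged 19.2 ± 0.571 RPKM in dPoflbC, 24.7 ± 5.15 RPKM in dPoClrC and 17.5 ± 2.92 RPKM in dCA. In dPoflbC against dCA the scaled log2 fold changes of PDE_09961, PDE_03264 and PDE_08232 were 0.056, -0.27 and -0.44. That of PDE_03264 lay below 0 although its RPKM mean was higher in dPoflbC, and so did that of PDE_08232. The words for regulators also took in PDE_02701 and PDE_09825, subunits of the AP-1 clathrin adaptor.

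The thioredoxin genes were 3 thioredoxins and their reductase. PDE_07564 was at 779.5, 846 and 873 RPKM in dPoflbC, 360.2, 391 and 364 RPKM in dPoClrC, and 345, 183 and 310.1 RPKM in dCA, and the dPoflbC libraries were all above the others. It rose in dPoflbC against dCA (1.02 ± 0.14, adjusted p = 0.000123), a call that ended without dCA replicate 2 (0.91) or dPoflbC replicate 3 (0.97). PDE_01808 had the same order, at 504 ± 78.1 RPKM in dPoflbC, 247 ± 13.7 RPKM in dPoClrC and 188 ± 39.2 RPKM in dCA, with log2 fold changes of 0.85 ± 0.11 against dCA and 0.75 ± 0.11 against dPoClrC that were not called. PDE_09714, the most abundant, was at 605, 613 and 626 RPKM in dPoflbC, 695, 891 and 739 RPKM in dPoClrC, and 680.2, 513 and 578 RPKM in dCA. By RPKM it was highest in dPoClrC and overlapped between dPoflbC and dCA. After scaling its dPoflbC libraries all lay below those of dCA and of dPoClrC. Its scaled log2 fold changes of -0.52 ± 0.13 and -0.61 ± 0.13 in dPoflbC against dCA and dPoClrC lay below 0, not called. Against dCA that sign depends on the scaling, since the RPKM mean was 615 ± 10.4 RPKM in dPoflbC and 590.4 ± 84.2 RPKM in dCA.

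Thioredoxin reductase (PDE_08354), which passes electrons from NADPH to thioredoxin, was at 142, 109 and 129 RPKM in dPoflbC, 49.0, 38.3 and 44.9 RPKM in dPoClrC, and 50.6, 44.3 and 46.9 RPKM in dCA. It rose in dPoflbC against dPoClrC (1.24 ± 0.13, adjusted p = 2.11e-05), and against dCA its log2 fold change was 0.83 ± 0.12 (adjusted p = 0.000246), under the threshold. Glutaredoxin 3 (PDE_02685) was the more abundant glutaredoxin, at 509, 492 and 548 RPKM in dPoflbC, 588, 545 and 519.6 RPKM in dPoClrC, and 599, 472 and 542 RPKM in dCA, and its RPKM overlapped in every pair. After scaling its levels did not overlap in any pair, and its log2 fold change was -0.64 ± 0.10 in dPoflbC against dCA (adjusted p = 0.000296), under the threshold. The monothiol glutaredoxin PDE_09078, a type that handles iron-sulfur clusters, averaged 217 ± 6.38 RPKM in dPoflbC, 158 ± 18.9 RPKM in dPoClrC and 159 ± 6.95 RPKM in dCA. After scaling its log2 fold change in dPoflbC against dCA was -0.15. Neither was called.

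Peroxiredoxins reduce peroxides with a reactive cysteine. Of the 4 genes, 1 fell in dPoflbC against dCA (25%, where 15.8% of all genes were called lower). In dPoClrC against dCA 1 rose (25%, where 5.69% were called higher). In dPoflbC against dPoClrC 2 fell (50%, where 13.6% were called lower). PDE_09082 (peroxiredoxin Q/BCP) was at 240.4, 232 and 224 RPKM in dPoflbC, 534, 514 and 447 RPKM in dPoClrC, and 316, 268 and 389 RPKM in dCA, with dPoflbC lowest and dPoClrC highest. It fell in dPoflbC against dCA (-1.06 ± 0.12, adjusted p = 4.18e-05) and against dPoClrC (-1.38 ± 0.12, adjusted p = 9.5e-06). The value against dCA was -0.48 and not called with no scaling, and -0.96 and not called without dCA replicate 3. PDE_08230 (peroxiredoxin 5) was at 156, 149 and 134 RPKM in dPoflbC, 269, 260.4 and 243 RPKM in dPoClrC, and 115, 62.8 and 120.2 RPKM in dCA, and all dPoClrC libraries lay above the others. It rose in dPoClrC against dCA (1.098 ± 0.14, adjusted p = 0.000309), with the loss without dCA replicate 2 given above, and fell in dPoflbC against dPoClrC (-1.09 ± 0.13, adjusted p = 7.8e-05), or -0.81 and not called with no scaling. After scaling its log2 fold change in dPoflbC against dCA was 0.0056. PDE_09020 (alkyl hydroperoxide reductase type) averaged 42.4 ± 3.54 RPKM in dPoflbC, 24.3 ± 3.12 RPKM in dPoClrC and 16.7 ± 3.63 RPKM in dCA and was not called.

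The catalases were led by the catalase-peroxidase PDE_07249, a bifunctional heme enzyme, at 1082, 1015 and 1155 RPKM in dPoflbC, 1612, 1354 and 1599 RPKM in dPoClrC, and 1292, 813 and 1075 RPKM in dCA. It was highest in dPoClrC by RPKM and was not called. Its log2 fold changes were -0.53 ± 0.16 in dPoflbC against dCA and -0.76 ± 0.16 in dPoflbC against dPoClrC. In dPoClrC against dCA the value was 0.23 ± 0.16, and the scaled levels overlapped. The monofunctional catalase PDE_01404 was at 21.4, 24.9 and 23.7 RPKM in dPoflbC, 60.2, 58.0 and 57.9 RPKM in dPoClrC, and 52.1, 95.5 and 55.9 RPKM in dCA. The dPoflbC libraries were the lowest, and dCA replicate 2 was far above the other dCA libraries. It fell in dPoflbC against dCA (-2.19 ± 0.29, adjusted p = 0.000109), or -1.65 without dCA replicate 2, and against dPoClrC (-1.60 ± 0.29, adjusted p = 0.000928). The third gene, PDE_05708, averaged 6.59 ± 0.619 RPKM in dPoflbC, 5.68 ± 0.715 RPKM in dPoClrC and 4.48 ± 0.435 RPKM in dCA and was not called. After scaling its log2 fold change in dPoflbC against dCA was -0.041.

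Of the superoxide dismutases, the Cu-Zn enzyme PDE_09399, the cytosolic type, was at 1808, 1742 and 1979 RPKM in dPoflbC, 1796, 1793 and 1991 RPKM in dPoClrC, and 1352, 616 and 1124 RPKM in dCA. The dCA libraries were all below the others and replicate 2 was the lowest, yet after scaling its log2 fold changes of 0.30 ± 0.18, 0.58 ± 0.18 and -0.29 ± 0.18 were not called. The Fe-Mn enzymes, a type that is often mitochondrial, differed in their order. PDE_08594 was at 218, 193 and 226 RPKM in dPoflbC, 409, 341 and 345 RPKM in dPoClrC, and 236, 164 and 243 RPKM in dCA and fell in dPoflbC against dPoClrC (-1.05 ± 0.11, adjusted p = 3.36e-05), or -0.78 and not called with no scaling. The call also ended without dPoflbC replicate 2 (-0.99) or dPoClrC replicate 1 (-0.98). PDE_05432 was at 96.4, 81.7 and 92.7 RPKM in dPoflbC, 44.8, 49.3 and 45.2 RPKM in dPoClrC, and 35.5, 18.6 and 35.5 RPKM in dCA and rose in dPoflbC against dCA (1.04 ± 0.15, adjusted p = 0.000156), but not without dCA replicate 2 (0.91). PDE_00326 had few reads, at 8.57, 6.89 and 9.80 RPKM in dPoflbC, 7.47, 6.97 and 8.14 RPKM in dPoClrC, and 5.57, 0.213 and 3.16 RPKM in dCA, with 1 read in dCA replicate 2, and was not called by edgeR. In dPoClrC against dCA limma on log2(RPKM + 1) called it higher.

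**Figure D4:**
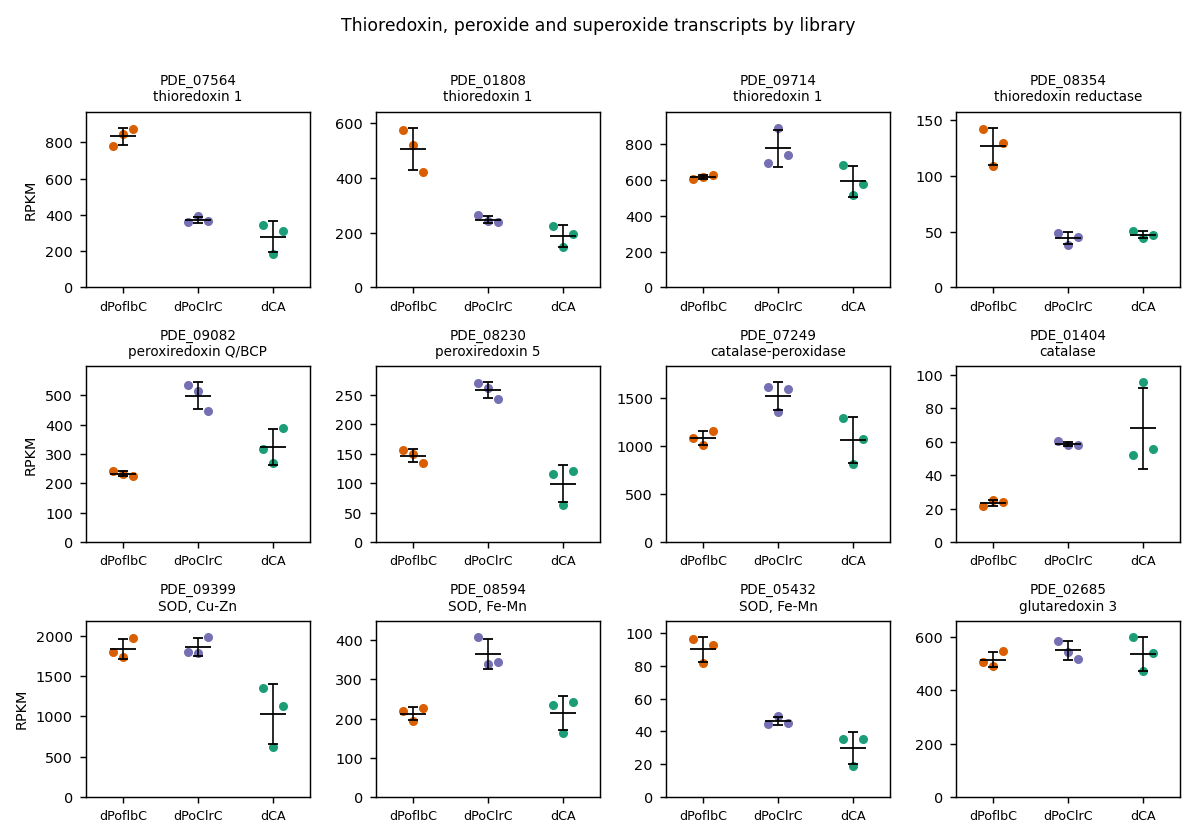
RPKM (vertical axes, from 0) of 12 thioredoxin, glutaredoxin, peroxiredoxin, catalase and superoxide dismutase genes in dPoflbC, dPoClrC and dCA; points are libraries, horizontal marks are means and bars are SD (n = 3). PDE_07564 and the reductase PDE_08354 are highest in dPoflbC, PDE_09082 and PDE_08230 in dPoClrC, and PDE_01404 is lowest in dPoflbC.

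Glutathione S-transferases couple glutathione to reactive compounds. Of 9 tested, 4 fell in dPoflbC against dCA and 3 in dPoflbC against dPoClrC, where 15.8% and 13.6% of all genes were called lower, with medians of -0.86 and -0.76 where all genes had -0.07 and 0.011. PDE_05029, the most abundant, was at 280.0, 285 and 295 RPKM in dPoflbC, 389.5, 463 and 437 RPKM in dPoClrC, and 654, 592 and 528 RPKM in dCA, with dPoflbC lowest, dCA highest and no overlap in any pair. It fell in dPoflbC against dCA (-1.64 ± 0.15, adjusted p = 9.5e-06). PDE_05020 was at 28.9, 26.97 and 21.5 RPKM in dPoflbC, 68.9, 72.4 and 78.7 RPKM in dPoClrC, and 95.8, 86.9 and 93.7 RPKM in dCA in the same order. Its log2 fold change was -2.43 ± 0.13 in dPoflbC against dCA (adjusted p = 2.88e-07) and -1.78 ± 0.13 in dPoflbC against dPoClrC (adjusted p = 2.34e-06).

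PDE_02434 was at 35.5, 24.97 and 24.9 RPKM in dPoflbC, 103, 114 and 107 RPKM in dPoClrC, and 105, 88.0 and 99.4 RPKM in dCA, low in dPoflbC and overlapping between the other strains. It fell against dCA (-2.37 ± 0.14, adjusted p = 5e-07) and against dPoClrC (-2.20 ± 0.14, adjusted p = 9.25e-07). PDE_04167 averaged 76.1 ± 9.22 RPKM in dPoflbC, 107 ± 5.66 RPKM in dPoClrC and 104 ± 12.0 RPKM in dCA and fell in dPoflbC against dCA by a small margin (-1.05 ± 0.17, adjusted p = 0.000344). That call ended with no scaling (-0.44), with DESeq2 (-0.998), and without dCA replicate 2 (-0.84) or dPoflbC replicates 1 (-0.98) or 2 (-0.998). PDE_00039 was at 92.1, 84.0 and 102 RPKM in dPoflbC, 155, 154 and 172 RPKM in dPoClrC, and 123, 88.4 and 100.1 RPKM in dCA and fell in dPoflbC against dPoClrC (-1.06 ± 0.11, adjusted p = 2.46e-05), or -0.79 and not called with no scaling and -0.99 and not called without dPoflbC replicate 2. PDE_07282, PDE_07696, PDE_04815 and PDE_09253 were not called, with means of 252, 139, 49.2 and 46.4 RPKM over the 9 libraries.

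PDE_00601 had too few reads to be tested. It had 18 reads over the dPoflbC libraries, 1 over the dPoClrC libraries and 0 over the dCA libraries. After TMM scaling that is at least 3.86-fold higher in dPoflbC than in dCA, with 3 reads over the strain as the floor, and a ratio of 13.9 to dPoClrC (95% exact binomial interval 2.19 to 577). Without scaling the bound was 5.79-fold and the ratio 16.8. The interval covers counting error only, over reads pooled from the libraries of a strain. The bound takes the 18 dPoflbC reads as exact, so it is not a lower confidence limit.

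Of the 11 other glutathione genes, 4 fell in dPoflbC against dCA and 5 in dPoflbC against dPoClrC, where 15.8% and 13.6% of all genes were called lower, and 1 fell in dPoClrC against dCA, where 7.35% were. Lactoylglutathione lyase (glyoxalase I), the first enzyme that removes methylglyoxal, a toxic by-product of sugar breakdown, has a pair of genes. PDE_08647 was at 52.1, 50.2 and 52.9 RPKM in dPoflbC, 173, 139.7 and 137 RPKM in dPoClrC, and 151, 115 and 139.5 RPKM in dCA, with dPoflbC far below strains that overlapped each other. It fell in dPoflbC against dCA (-1.96 ± 0.10, adjusted p = 2.21e-07) and against dPoClrC (-1.81 ± 0.10, adjusted p = 4.82e-07). PDE_08923 averaged 159 ± 0.613 RPKM in dPoflbC, 338 ± 18.3 RPKM in dPoClrC and 199.6 ± 50.6 RPKM in dCA and fell in dPoflbC against dPoClrC (-1.36 ± 0.12, adjusted p = 6.89e-06). Against dCA its log2 fold change was -0.89 ± 0.12, under the threshold. The next enzyme, hydroxyacylglutathione hydrolase (glyoxalase II, PDE_04388), averaged 138 ± 6.80 RPKM in dPoflbC, 194 ± 0.763 RPKM in dPoClrC and 200.4 ± 26.9 RPKM in dCA and fell in dPoflbC against dCA (-1.14 ± 0.13, adjusted p = 4.78e-05), or -0.54 and not called with no scaling.

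The formaldehyde pathway has a dehydrogenase and a hydrolase. S-(hydroxymethyl)glutathione dehydrogenase (PDE_03064), the most abundant of the other glutathione genes, was at 507, 495 and 529.6 RPKM in dPoflbC, 589, 640.5 and 676 RPKM in dPoClrC, and 497, 343 and 414 RPKM in dCA and was not called (-0.29, 0.31 and -0.59 on the log2 scale, in the order of the comparisons above). S-formylglutathione hydrolase (PDE_09160) averaged 97.1 ± 2.34 RPKM in dPoflbC, 188 ± 29.9 RPKM in dPoClrC and 109.6 ± 38.8 RPKM in dCA and fell in dPoflbC against dPoClrC (-1.23 ± 0.17, adjusted p = 0.000203), or -0.95 and not called with no scaling. By mean RPKM both were highest in dPoClrC.

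Gamma-glutamyltranspeptidases take the glutamyl group off glutathione, and of the 3 genes with that KEGG name PDE_00595 and PDE_04490 were called. PDE_00595 was at 1.09, 1.32 and 1.69 RPKM in dPoflbC, 3.46, 4.72 and 5.48 RPKM in dPoClrC, and 8.50, 7.69 and 8.45 RPKM in dCA, and the strains did not overlap. Its log2 fold change was -3.17 ± 0.24 in dPoflbC against dCA (adjusted p = 2.32e-06), -1.16 ± 0.20 in dPoClrC against dCA (adjusted p = 0.00205, or -0.85 and not called with no scaling) and -2.01 ± 0.25 in dPoflbC against dPoClrC (adjusted p = 7.89e-05, or -0.58 and not called by limma on log2(RPKM + 5)). PDE_04490 was at 86.4, 89.2 and 108 RPKM in dPoflbC, 215, 208 and 211 RPKM in dPoClrC, and 148, 119.6 and 156 RPKM in dCA and fell in dPoflbC against dCA (-1.16 ± 0.12, adjusted p = 2.05e-05, or -0.58 and not called with no scaling) and against dPoClrC (-1.44 ± 0.12, adjusted p = 6.2e-06). PDE_01645, the one with a transcription factor function in the Gene Ontology columns, averaged 20.2 ± 1.88 RPKM in dPoflbC, 18.2 ± 0.724 RPKM in dPoClrC and 22.7 ± 3.26 RPKM in dCA and was not called (-0.75, -0.63 and -0.12 on the log2 scale, in the order of the comparisons above).

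The enzymes that make glutathione, recycle it or spend it on peroxides were not called. Glutathione reductase (PDE_00554), which regenerates it with NADPH, averaged 225 ± 6.98 RPKM in dPoflbC, 188 ± 6.28 RPKM in dPoClrC and 130.01 ± 19.3 RPKM in dCA. Glutathione synthase (PDE_09331), the last step of its synthesis, averaged 55.8 ± 3.92 RPKM in dPoflbC, 56.9 ± 3.53 RPKM in dPoClrC and 39.6 ± 12.5 RPKM in dCA, and glutathione peroxidase (PDE_04919) averaged 160.0 ± 5.14 RPKM in dPoflbC, 151 ± 3.65 RPKM in dPoClrC and 105 ± 16.0 RPKM in dCA. Outside the 59 genes, the catalytic and regulatory subunits of glutamate-cysteine ligase, the first step, were not called by edgeR either (PDE_02034 at 84.0 ± 5.01 RPKM in dPoflbC, 51.7 ± 1.11 RPKM in dPoClrC and 67.3 ± 8.57 RPKM in dCA and PDE_05130 at 58.0 ± 2.04 RPKM in dPoflbC, 38.4 ± 6.12 RPKM in dPoClrC and 27.2 ± 5.14 RPKM in dCA). In dPoflbC against dCA limma on log2(RPKM + 1), with no scaling, called PDE_05130 higher (1.08), where edgeR gave 0.52. For PDE_02034 and glutathione synthase edgeR gave -0.26 and -0.059 there, although their RPKM means were higher in dPoflbC. For glutathione reductase and glutathione peroxidase it gave 0.21 and 0.030.

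**Figure D5:**
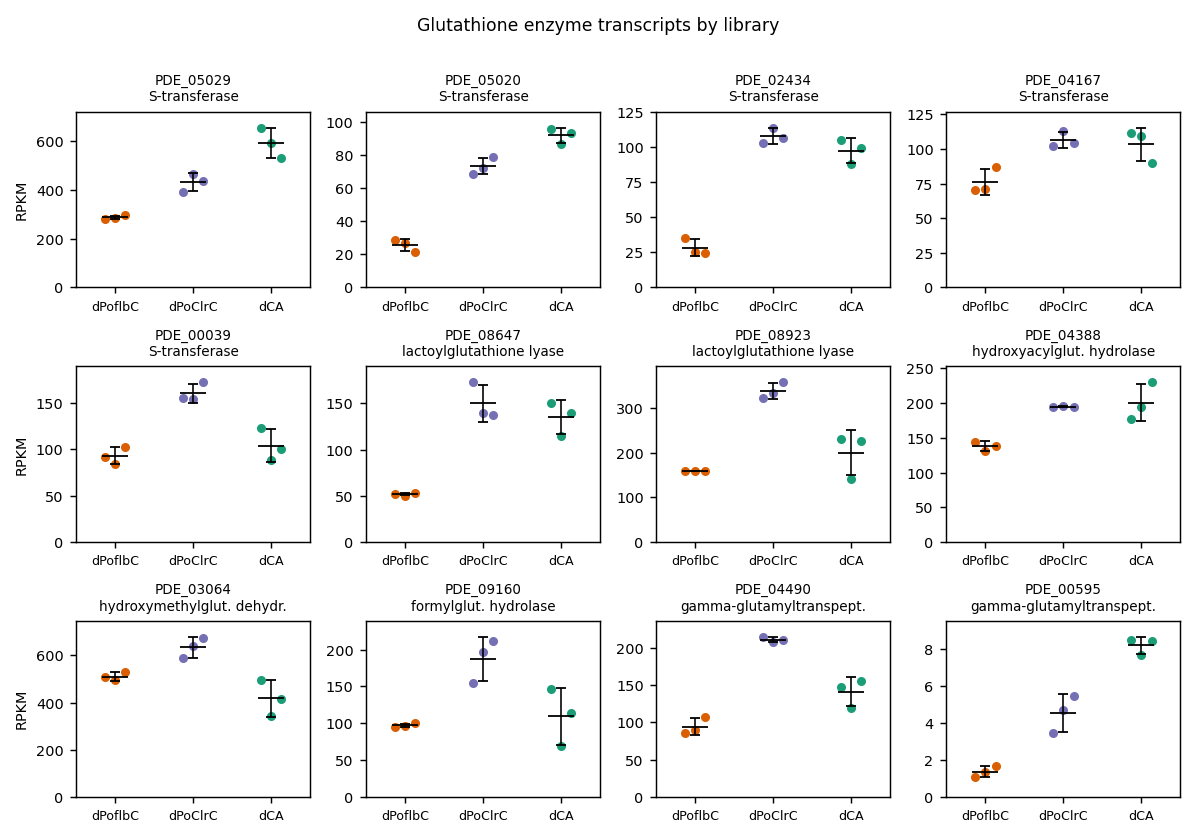
RPKM (vertical axes, from 0) of 12 genes for glutathione S-transferases and other glutathione enzymes in dPoflbC, dPoClrC and dCA; points are libraries, horizontal marks are means and bars are SD (n = 3). PDE_05020, PDE_02434, PDE_08647 and PDE_00595 are lowest in every dPoflbC library, and PDE_08923 and PDE_04490 are highest in dPoClrC.

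The list of other redox enzymes, which holds those subunits, also has cytochrome c peroxidase (PDE_05494), a mitochondrial enzyme that removes peroxide, at 657, 617 and 573 RPKM in dPoflbC, 281, 251 and 236 RPKM in dPoClrC, and 297, 841 and 387 RPKM in dCA. In dCA replicate 2 it stood well above the other dCA libraries. It fell in dPoClrC against dCA (-1.40 ± 0.40, adjusted p = 0.0207), but not without dCA replicate 2 (-0.60), with no scaling (-0.99), in a fit of only these strains (adjusted p = 0.0519), or without dPoClrC replicate 2 or 3 (adjusted p = 0.0672 and 0.0686). In dPoflbC against dPoClrC its levels did not overlap and its log2 fold change was 0.99 ± 0.40, not called by edgeR (adjusted p = 0.0543) but called higher by DESeq2 (1.01) and by limma on log2(RPKM + 1) (1.26) and log2(RPKM + 5) (1.25). Of the 6 genes of NADPH supply, 5 were tested, and the NAD+ kinase PDE_04637 was the only one edgeR called (20% in dPoClrC against dCA, where 7.35% of all genes were called lower). It fell in dPoClrC against dCA (-1.101 ± 0.23, adjusted p = 0.00487), at 76.1 ± 5.77 RPKM in dPoflbC, 47.7 ± 1.45 RPKM in dPoClrC and 79.8 ± 19.97 RPKM in dCA, and this call ended without dCA replicate 2 (-0.70) or with no scaling (-0.74). Glucose-6-phosphate dehydrogenase (PDE_01924), the entry to the pentose phosphate pathway, averaged 189.5 ± 6.40 RPKM in dPoflbC, 221 ± 13.5 RPKM in dPoClrC and 136 ± 38.4 RPKM in dCA and was not called. Its scaled log2 fold change in dPoflbC against dCA was -0.075. The 6-phosphogluconate dehydrogenase PDE_08859 was at 0.41 ± 0.17 there and not called by edgeR. In the same comparison limma on log2(RPKM + 1), with no scaling, called PDE_08859 higher (1.003).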

How the data were processed

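Mycelia of 3 deletion strains, in triplicate, were sequenced. The authors deposited, per gene and library, the count of reads that the file header calls unique, RPKM, and the coverage of the gene in percent; the coverage in percent that the authors deposited was not used. Per the submitters' processing notes CASAVA 1.8 was used; aligner, counter and build: not given in the sources used here. A dash in the deposited counts was read as 0, each header total equals its column sum, and the deposited RPKM equals reads per kilobase per M reads counted in genes.

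Each column was assigned by the library code that a sample's description gives, and no 2 libraries of a strain were alike within sampling noise. The counts of 9786 genes were filtered with filterByExpr (8681 kept, 58 of the 59 genes described) and scaled by TMM. They were tested in edgeR 4.0.16 (R 4.3.3) with the two-sided quasi-likelihood test, in 1 fit over the 9 libraries with 1 mean per strain, and p-values were Benjamini-Hochberg adjusted over all genes tested. The standard error is the log2 fold change over the square root of the quasi-likelihood F. Alternatives were DESeq2 1.42.0, limma 3.58.1 on log2(RPKM + 1) and log2(RPKM + 5), other scalings, no filter, the replicate number as a block, fits of 2 strains, no fold threshold, and leaving out each library. Where a strain had no reads, a bound uses 3 reads.

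The genes, lists and roles were chosen with earlier results of these data known. Values per library are given for the called genes with the 2 largest changes of a role in each direction and for the most abundant gene of a role; called genes of the lists are named too. Other uncalled genes, and values per library outside this rule (PDE_00039, PDE_04490, PDE_00326, ClpB and PDE_05494), were chosen after their values were seen. The reference table matched 0 of the locus numbers, so no position or sequence is given. The labels call the replicates biological; the p-values measure the spread between them.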

Additional observations from a re-analysis of the deposited data

How the results depend on the processing

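Of the 36 calls of single genes (23 genes), 20 held under all 17 alternatives and 0 reversed; 11 ended with no scaling or with limma on RPKM, and 11 ended on leaving out a library, 5 of them without dCA replicate 2. The cause was not tested. The 17 include leaving out each library of the strain not compared, which tests a call little. For PDE_01365 in dPoflbC against dCA these gave 2.026, 2.031 and 2.025, where 2.027 was reported. With no scaling, 14 were called higher and 6 lower in dPoflbC against dCA, 0 fell in dPoClrC against dCA (edgeR, 5 lower at an unadjusted p under 0.05), and 10 rose in dPoflbC against dPoClrC. With limma on log2(RPKM + 1), 14 rose and 6 fell, 4 rose and 0 fell, and 10 rose in these comparisons; with log2(RPKM + 5), 11 rose and 6 fell, 0 fell, and 9 rose and 7 fell. Both limma counts of 0 are of dPoClrC against dCA, with 5 lower at an unadjusted p under 0.05 in each, and neither limma fit scales the libraries further. With no minimum fold, 12 rose and 23 fell, 9 rose and 12 fell, and 16 rose and 23 fell, in the order of the comparisons. On leaving out each library, 4 to 6 rose and 9 to 11 fell in dPoflbC against dCA, 0 to 3 rose (0 without dCA replicate 2) and 1 to 2 fell (1 without dPoClrC replicate 1 or dCA replicate 3) in dPoClrC against dCA, and 4 to 7 rose and 10 to 12 fell in dPoflbC against dPoClrC.

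With the replicate block, 5 rose and 10 fell, 2 rose and 2 fell, and 5 rose and 12 fell, as without it. Same-numbered libraries correlated at -0.178 to 0.131 in their deviations from the strain means, so the numbers were not taken as pairs. Depth limits PDE_00326 and PDE_00601, which had few reads. PDE_00595 also had few in dPoflbC, with 14, 18 and 21 reads in its libraries. With 3 libraries a strain, a gene that was not called is not shown to be equal between strains.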
